A study of Homo sapiens with 60 samples.

Results

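A549 cells, an established human lung adenocarcinoma line with features of the alveolar type II cell, were treated for 24 h with Sayeok-tang, a traditional herbal formula extracted in hot water, or with dried ginger (Zingiberis Rhizoma) extracted in 70% ethanol, each at 500 µg/mL. Of the 60 libraries of the series, 6 belonged to this comparison by their labels, 3 per extract. Another 12 libraries held both extracts at 20 and 100 µg/mL, also 3 per group, and 3 held the DMSO vehicle. The vehicle concentration was 0.1% in the sample labels and 2% in the series text. Sayeok-tang carried set number 8 and dried ginger set number 9, so at any one dose extract, solvent and set cannot be told apart. The vehicle libraries carried another number, C1, so in comparisons with vehicle extract and set cannot be told apart either. No label states that the 3 libraries of a group were grown as separate cultures. The p-values therefore speak of the spread among these libraries, part of which may be technical.

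Sayeok-tang is usually made of aconite, dried ginger and licorice, so the comparison sets a formula against one of its customary herbs. The labels give no composition and no share of ginger in the formula, and the doses count mass of extract. Pungent phenols such as gingerols and shogaols are the best known constituents of ginger. Shogaols are reactive with thiols, and they form from gingerols when the rhizome is dried.

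Polyadenylated RNA was sequenced as strand-specific libraries, and reads per gene were given as RSEM expected counts. Totals were 23.08 to 26.82 M (mega) counts in Sayeok-tang 500 libraries, 22.02 to 38.54 M in dried ginger 500 libraries and 25.37 to 30.81 M in vehicle libraries. Mitochondrial transcripts took 10.2 to 11.1% of counts in Sayeok-tang 500, 9.70 to 10.5% in dried ginger 500 and 8.58 to 9.38% in vehicle. The 9 epithelial and A549 markers examined, KRT8, KRT18 and NQO1 among them, were present in all groups. Summed endothelial and erythroid markers stayed at or under 0.332 CPM (counts scaled to the library total) in the high-dose, low-dose and vehicle groups, and the 5 leukocyte markers at or under 2.35 CPM. The 6 fibroblast markers, of which COL1A1 was the most abundant, summed to 25.7 to 27.96 CPM in Sayeok-tang 500, 20.7 to 22.0 CPM in dried ginger 500 and 32.0 to 35.7 CPM in vehicle, and their part in the results was not tested.

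At 500 µg/mL the extracts differed in transcripts of several pathways, while at 20 µg/mL almost no gene differed. Sayeok-tang cells had lower transcripts of the amino acid starvation response (NIBAN1 at 0.238 of its dried ginger level) and higher transcripts of cholesterol synthesis (HMGCS1 at 1.77-fold), mitosis (KIF20A at 1.73-fold) and fibrinogen (FGB at 2.24-fold). For most genes that differed, the Sayeok-tang mean lay between the vehicle and dried ginger means, while for cholesterol synthesis the group medians lay on opposite sides of vehicle. Of 16593 genes tested, 5066 passed edgeR's quasi-likelihood test at an adjusted p under 0.05, or 30.5%. Of these, 2491 (15.0%) were higher and 2575 (15.5%) lower in Sayeok-tang, and which side held more calls depended on the scaling. Most differences were small, with a median size of 0.24 on the log2 scale among the calls. In all, 139 called genes reached 2-fold (53 higher, 86 lower), and 65 of them also passed the test of dose changes given below. Among the 10967 genes that averaged 5 CPM or more, 28 differed by 2-fold or more, so many of the 139 were scarce.

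The low doses check whether the sets differed before any strong treatment. At 20 µg/mL 1 of 16593 genes was called, or 0.00603%, and 1003 had an unadjusted p under 0.05. DESeq2 called 13 at this dose. The called gene was TFPI, which encodes tissue factor pathway inhibitor, a brake on the start of coagulation. TFPI had 47.8, 45.6 and 47.8 CPM in Sayeok-tang 20 libraries, against 55.4, 58.2 and 53.4 CPM in dried ginger 20 libraries, without overlap. Its difference was −0.24 ± 0.04 (log2, standard error of the fit; adjusted p = 0.0359) at 20 µg/mL and −0.25 ± 0.04 (adjusted p = 1.01e-05) at 500 µg/mL. TFPI thus had the same offset at both ends of the dose range, and its vehicle libraries had 43.5, 45.8 and 47.3 CPM. None of the 139 genes that differed by 2-fold at 500 µg/mL was called at 20 µg/mL. With 1 gene called of 16593 at that dose, this outcome was nearly fixed beforehand and says little about offsets in the 139.

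At 100 µg/mL 52 genes were called (0.313%), 30 higher (0.181%) and 22 lower (0.133%) in Sayeok-tang. Of these, 41 were called in the same direction at 500 µg/mL, among them ASNS, PHGDH, NIBAN1, CYP1B1, TIPARP and SQSTM1 on the lower side and NR4A1, MDGA1 and FGB on the higher side. The heat shock genes HSPA1A and HSPA1B were called in opposite directions at these doses. Without dried ginger replicate 1 the count at 100 µg/mL was 19, and without Sayeok-tang replicate 2 it was 20. Among the 10967 genes that averaged 5 CPM or more, the 90th percentile of the size of the difference was 0.11 (log2) at 20 µg/mL, 0.12 at 100 µg/mL and 0.32 at 500 µg/mL.

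**Figure D1:**
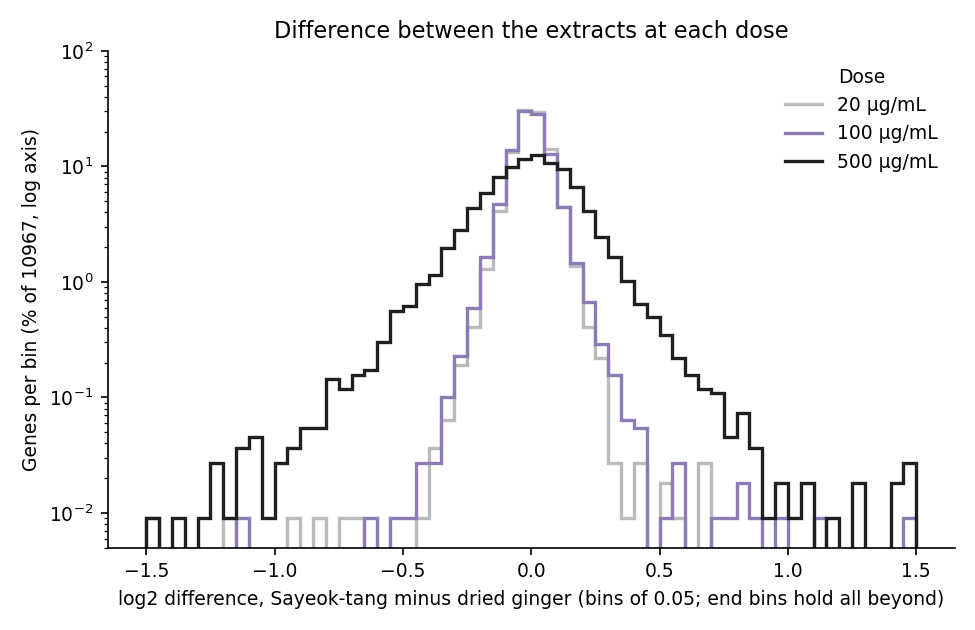
Distribution of the log2 difference, Sayeok-tang minus dried ginger, over 10967 genes at 20, 100 and 500 µg/mL, as the percent of genes per bin of 0.05 on a log axis. The curves for 20 and 100 µg/mL nearly coincide, and the curve for 500 µg/mL is wider on both sides.

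Because a constant offset between sets drops out of a change with dose, the change between 20 and 500 µg/mL was also compared between the extracts. That difference of dose changes was called for 2578 genes, or 15.5%, with 1328 (8.0%) more positive and 1250 (7.53%) more negative in Sayeok-tang. In all, 2480 genes (14.9%) passed both this test and the direct test at 500 µg/mL in the same direction, 1295 higher (7.8%) and 1185 lower (7.14%). TFPI was not among them, with a difference of dose changes of −0.01 ± 0.06 (adjusted p = 0.931).

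The position of the 2 extracts relative to vehicle was read from the group means, since both comparisons with vehicle use the same 3 vehicle libraries. Of the 5066 called genes, 3126 (61.7%) had a Sayeok-tang mean between the vehicle and dried ginger means. In 1771 (35.0%) the extracts lay on opposite sides of vehicle, and in 169 (3.34%) Sayeok-tang lay farther from vehicle than dried ginger on the same side. Of the 139 genes with a 2-fold difference, 4 had that last order, and all 4 averaged under 1 CPM. These positions go by the sign of the differences between means, without a threshold. Opposite sides therefore include genes close to vehicle in Sayeok-tang, such as CALR (0.03 ± 0.03 against vehicle, adjusted p = 0.472). Among all genes tested, 46 had called changes from 20 to 500 µg/mL in opposite directions. On the first principal component of all 21 libraries, which held 45% of the variance, Sayeok-tang 500 libraries scored 1.8 to 2.8, dried ginger 500 libraries 20.7 to 22.5 and vehicle libraries −8.2 to −7.8. Dried ginger at 100 µg/mL scored −1.7 to −0.8. Sayeok-tang at 500 µg/mL thus lay between the medium and the high dose of dried ginger on this axis, closer to the medium dose. On the second component (9.8% of the variance) vehicle libraries scored −12.5 to −7.2, and the lowest score of any other library was −2.1. The part of the set number in this was not tested.

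**Figure D2:**
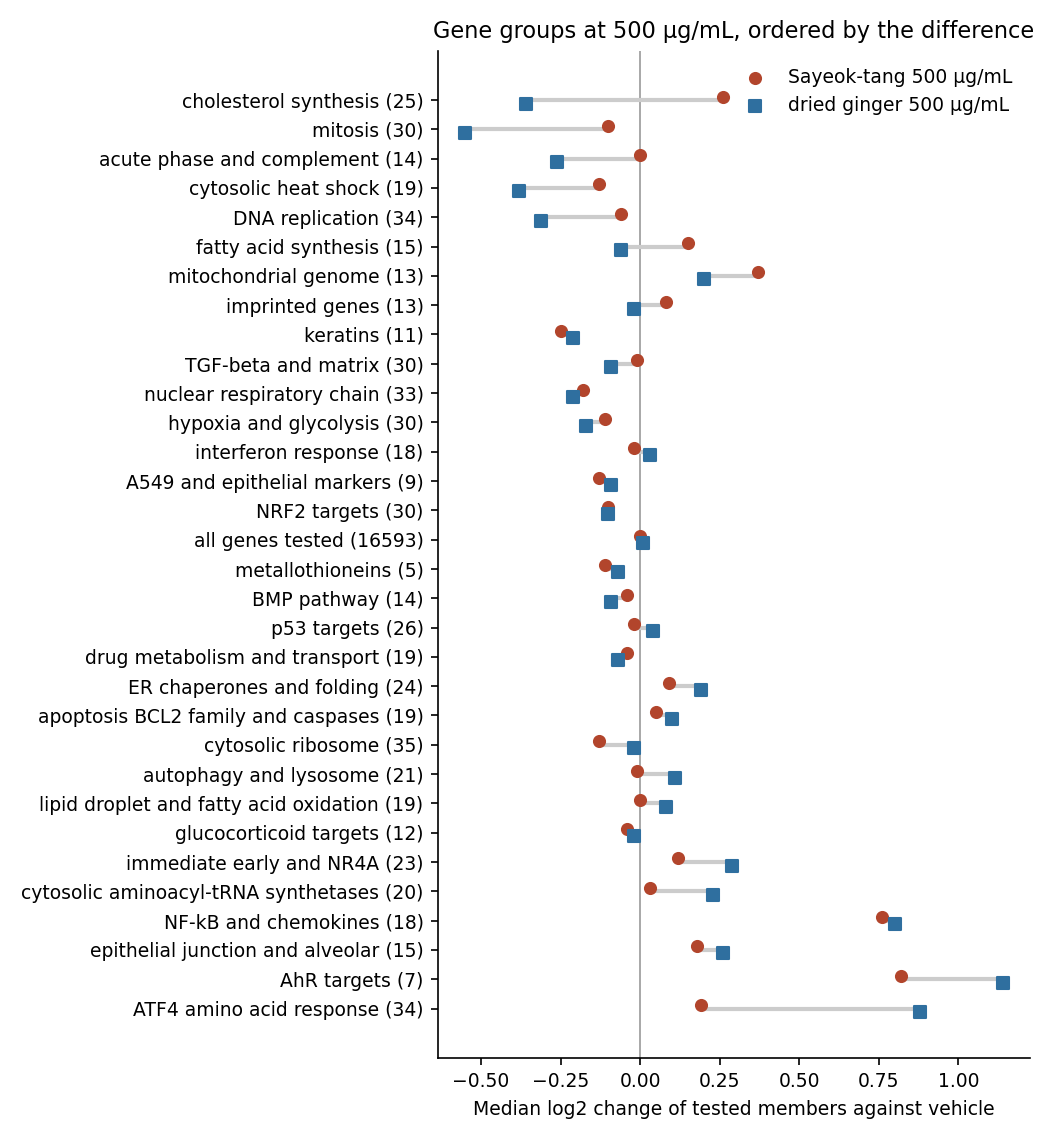
Median log2 change against vehicle of the tested members of each gene group at 500 µg/mL, with circles for Sayeok-tang and squares for dried ginger, ordered by the median difference between the extracts; numbers of tested members are in brackets. Cholesterol synthesis (0.26 in Sayeok-tang and −0.36 in dried ginger) and fatty acid synthesis lie on both sides of 0, and the amino acid response (0.19 and 0.88) has the widest gap.

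The integrated stress response adjusts translation when amino acids run short, haem is lacking or proteins misfold in the endoplasmic reticulum. Kinases phosphorylate the initiation factor eIF2alpha, translation of the transcription factor ATF4 increases, and ATF4 then switches on genes for amino acid synthesis and uptake, for aminoacyl-tRNA synthetases and, under longer stress, for the factor DDIT3 (CHOP). Of 34 tested members of the ATF4 amino acid response list, 30 were lower in Sayeok-tang than in dried ginger and none was higher, against 15.5% of all genes tested that were lower. All 30 also passed the test of the dose changes, which shares the high-dose libraries (7.53% of all genes in this direction). The list median was −0.70 (log2) at 500 µg/mL, where that of all genes was −0.01, and 0.04 at 20 µg/mL, where no member was called.

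Among transcription factors and regulators of the response, DDIT3, the factor linked to death under prolonged stress, had 8.4, 9.0 and 9.74 CPM in Sayeok-tang libraries, against 20.3, 20.9 and 21.6 CPM in dried ginger libraries and 9.84, 9.89 and 9.84 CPM in vehicle libraries. Sayeok-tang libraries thus lay close to vehicle and far under dried ginger, a difference of −1.21 ± 0.07 (adjusted p = 1.66e-16). Against vehicle, the change of DDIT3 was −0.13 ± 0.08 in Sayeok-tang (adjusted p = 0.317) and 1.09 ± 0.07 in dried ginger (adjusted p = 6.32e-16). TRIB3, a pseudokinase that feeds back on ATF4, had 93.0, 97.8 and 89.5 CPM in Sayeok-tang, against 201, 202 and 204 CPM in dried ginger and 64.5, 68.2 and 75.6 CPM in vehicle. TRIB3 rose over vehicle in both extracts, by 0.43 ± 0.05 in Sayeok-tang and 1.55 ± 0.05 in dried ginger. ATF3, a stress-induced repressor, had 7.24, 7.56 and 6.4 CPM in Sayeok-tang, against 12, 12.4 and 12 CPM in dried ginger. ATF4's own transcript, whose main control is in translation, differed less, by −0.27 ± 0.03, with 272, 274 and 277 CPM in Sayeok-tang and 338, 325 and 334 CPM in dried ginger.

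NIBAN1, a stress-induced gene known for its link to eIF2alpha phosphorylation, had the largest difference among the genes named here. Its libraries had 18.0, 20.1 and 18.9 CPM in Sayeok-tang, against 76.5, 81.4 and 80.9 CPM in dried ginger and 11.4, 10.6 and 9.92 CPM in vehicle. The groups did not overlap, and the difference was −2.07 ± 0.06 (adjusted p = 1.62e-26). STC2, a secreted glycoprotein, had 46.4, 48.3 and 43.8 CPM in Sayeok-tang and 124, 121 and 117 CPM in dried ginger, a difference of −1.38 ± 0.04 (adjusted p = 1.28e-26). CHAC1, which degrades glutathione, had 8.92, 9.27 and 7.61 CPM in Sayeok-tang, against 19.1, 19.8 and 18.1 CPM in dried ginger. SESN2, a sestrin that restrains mTORC1 when leucine is short, had 14.7, 17.7 and 15.9 CPM in Sayeok-tang, against 34.7, 33.8 and 32.2 CPM in dried ginger. For SESN2, the Sayeok-tang libraries lay at or near the 12.4 to 15.0 CPM of vehicle, and the change of 0.23 ± 0.08 was not called (adjusted p = 0.0546).

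Enzymes that make or handle amino acids and one-carbon units were lower too. ASNS, asparagine synthetase, had 163, 162 and 163 CPM in Sayeok-tang, against 262, 258 and 275 CPM in dried ginger and 120, 132 and 128 CPM in vehicle. ALDH1L2, a mitochondrial enzyme of folate metabolism, had 36.6, 36.9 and 36.6 CPM in Sayeok-tang and 82.7, 85.0 and 84.8 CPM in dried ginger. PHGDH and PSAT1, the opening steps of serine synthesis, differed by −0.69 ± 0.04 and −0.56 ± 0.03. These enzymes rose over vehicle in both extracts, ASNS by 0.36 ± 0.04 in Sayeok-tang and 1.06 ± 0.03 in dried ginger. Among transporters, SLC7A11, the cystine carrier, was −0.21 ± 0.04 lower, while SLC7A5 (0.06) and SLC3A2 (−0.02), which pair to import leucine, were not called.

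**Figure D3:**
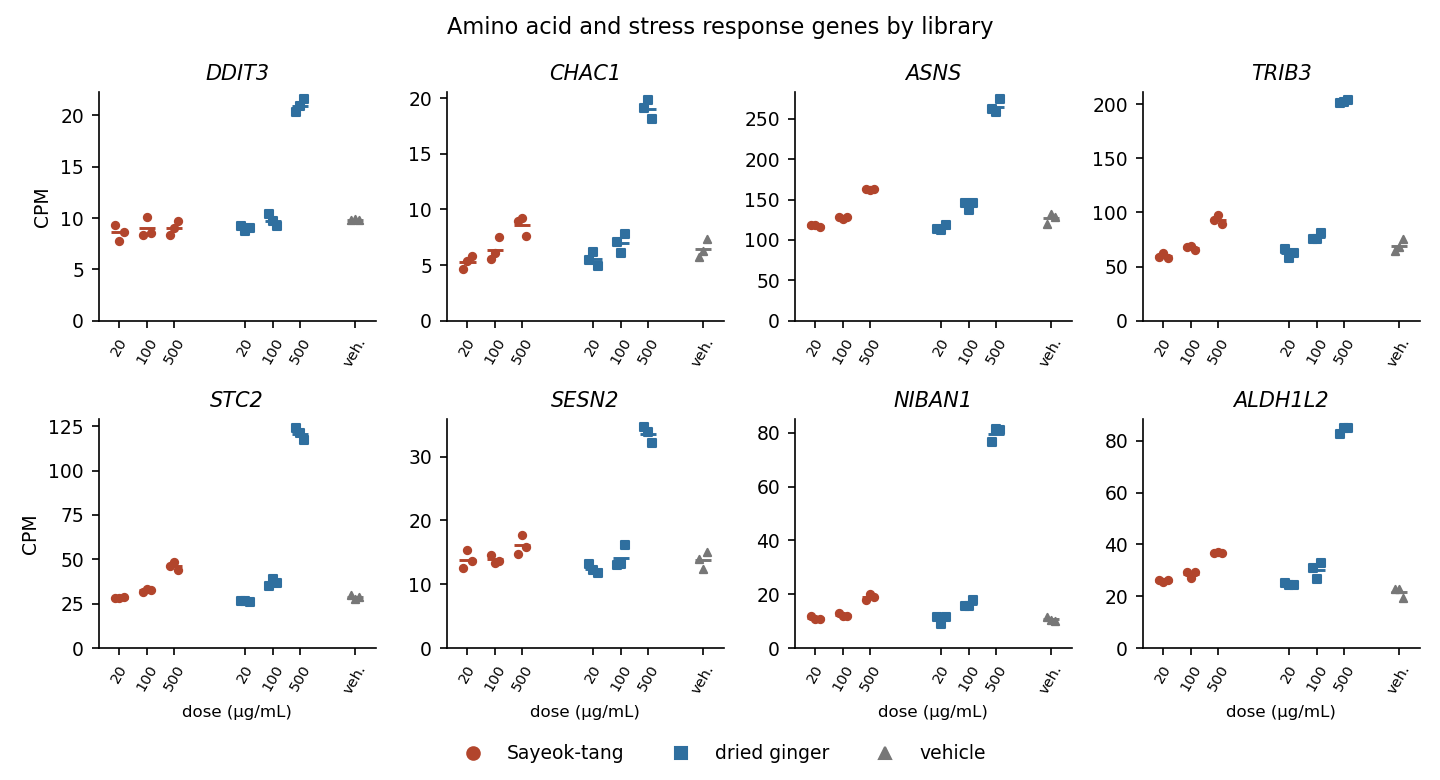
CPM of 8 genes of the amino acid and stress response in every library, by dose of Sayeok-tang (circles), by dose of dried ginger (squares) and in vehicle (triangles), with bars at the means. At 500 µg/mL the 3 dried ginger libraries stand apart from all others for each gene, as for NIBAN1 at 76.5 to 81.4 CPM against 18.0 to 20.1 CPM in Sayeok-tang.

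ATF4 binds composite elements of the form TGATGNAA upstream of its targets. The 250 bases before the RefSeq start (GRCh38.p14) were searched on both strands for these letters. Of the 28 tested list members with a sequence, 2 held the motif, against 3.19% of all 27305 promoters. Of the same 28, 24 were called, the 2 with the motif among them. The stretches of these 2, CHAC1 (chr15:40953232-40953299, plus strand) and ASNS (chr7:97872439-97872506, minus strand), are shown with the motif in capitals. That of CHAC1 lies on the opposite strand.
CHAC1: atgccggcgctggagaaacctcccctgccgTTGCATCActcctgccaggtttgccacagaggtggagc
ASNS: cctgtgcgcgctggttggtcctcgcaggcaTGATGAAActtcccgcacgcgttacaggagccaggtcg

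Aminoacyl-tRNA synthetases charge transfer RNAs, and more of those acting in the cytosol were lower than higher in Sayeok-tang. Of 20 tested, 11 were lower and 4 higher, against 15.5% and 15.0% of all genes. The higher count was near the share over all genes. All 11 lower members and 1 of the 4 higher ones passed both tests (7.14% and 7.8% of all genes). SARS1, for serine, had 87.4, 88.9 and 91.1 CPM in Sayeok-tang, against 124, 127 and 128 CPM in dried ginger and 84.4, 88.1 and 86.2 CPM in vehicle. GARS1, for glycine, had 262, 270 and 273 CPM in Sayeok-tang, against 379, 368 and 384 CPM in dried ginger. In SARS1 the Sayeok-tang libraries reached into or just over the range of vehicle. The higher genes were VARS1 (0.10), HARS1 (0.12), KARS1 (0.15) and RARS1 (0.19).

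Genes of the endoplasmic reticulum did not move as 1 block. Of 24 tested chaperone and folding genes, 10 were lower and 5 higher in Sayeok-tang, against 15.5% and 15.0% of all genes. ERN1, the IRE1 sensor of unfolded proteins, had 19.4, 20.0 and 20.1 CPM in Sayeok-tang, against 33.0, 35.9 and 33.3 CPM in dried ginger and 15.7, 16.7 and 15.4 CPM in vehicle. XBP1 (−0.45), the transcription factor IRE1 activates, and HERPUD1 (−0.34), of the degradation pathway, were lower as well. CALR, the calcium-binding chaperone calreticulin, went the other way, with 483, 489 and 476 CPM in Sayeok-tang, against 345, 334 and 343 CPM in dried ginger and 477, 464 and 473 CPM in vehicle. Its Sayeok-tang libraries overlapped vehicle (0.03 ± 0.03, adjusted p = 0.472), and dried ginger lay under both.

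Cholesterol synthesis is controlled by SREBP2, a factor held in the endoplasmic reticulum by INSIG proteins and released when sterols are low; it then activates nearly every enzyme of the pathway. Of 25 tested members, 23 were higher in Sayeok-tang than in dried ginger and none was lower, against 15.0% of all genes that were higher. All 23 also passed the test of the dose changes (8.0% of all genes in this direction), and none was called at 20 or 100 µg/mL. The list median was 0.53 at 500 µg/mL and −0.01 at 20 µg/mL. Against vehicle, 17 members rose and 1 fell in Sayeok-tang (8.58% and 9.12% of all genes), and 1 rose and 21 fell in dried ginger (22.7% and 21.4% of all genes).

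Of the early steps, HMGCS1, the cytosolic HMG-CoA synthase, had 235, 240 and 238 CPM in Sayeok-tang, against 129, 132 and 140 CPM in dried ginger and 207, 211 and 194 CPM in vehicle. The 3 groups did not overlap, and the difference between extracts was 0.83 ± 0.03 (adjusted p = 2.24e-21). MVK, mevalonate kinase, had 27.8, 27.6 and 26.5 CPM in Sayeok-tang, against 15.8, 15.0 and 15.0 CPM in dried ginger and 21.8, 23.8 and 22.8 CPM in vehicle.

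Of the sterol-forming steps, LSS, which closes the sterol rings, had 48.9, 50.5 and 49.7 CPM in Sayeok-tang, against 28.2, 27.7 and 28.7 CPM in dried ginger and 41.9, 37.8 and 38.1 CPM in vehicle. The groups did not overlap, and the difference between extracts was 0.82 ± 0.04 (adjusted p = 4.09e-18). DHCR7, which completes cholesterol, had 119, 130 and 118 CPM in Sayeok-tang and 74.1, 74.1 and 71.0 CPM in dried ginger. PMVK (0.05) and TM7SF2 (0.08) were the members not called.

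Regulators followed the enzymes. INSIG1, itself an SREBP target, had 47.0, 50.8 and 47.2 CPM in Sayeok-tang, against 27.7, 27.8 and 27.5 CPM in dried ginger and 35.1, 37.9 and 36.7 CPM in vehicle. Vehicle lay between the extracts without overlap. SREBF2, the gene of SREBP2, had 124, 128 and 121 CPM in Sayeok-tang and 96.2, 95.6 and 94.8 CPM in dried ginger, a difference of 0.38 ± 0.03 (adjusted p = 3.4e-12).

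Letters of a classic sterol element, TCACNCCAC, were found upstream of 1 of 18 tested members with a sequence, SREBF2, and in 0.875% of all promoters. The stretch is from chr22:41832942-41833010 (plus strand).
SREBF2: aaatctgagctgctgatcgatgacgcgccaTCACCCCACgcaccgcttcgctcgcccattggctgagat

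Fatty acid synthesis, which SREBP1 governs, moved in the same direction for its main enzymes. Of 15 tested members, 10 were higher and 2 lower in Sayeok-tang, against 15.0% and 15.5% of all genes. SCD, which introduces the first double bond, had 1300, 1390 and 1270 CPM in Sayeok-tang, against 810, 824 and 840 CPM in dried ginger and 962, 958 and 912 CPM in vehicle. FADS2, a desaturase of polyunsaturated fatty acids, had 512, 520 and 494 CPM in Sayeok-tang, against 295, 305 and 303 CPM in dried ginger and 423, 400 and 415 CPM in vehicle. Both genes thus stood over vehicle in Sayeok-tang and under it in dried ginger. SCD5 (−0.36) and ACACB (−0.21), the mitochondrial form of acetyl-CoA carboxylase, were lower in Sayeok-tang.

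Transcripts of mitosis are made in the G2 phase, when the FOXM1 and MYB-MuvB complexes act on their promoters, and fall in cells held in G1. All 30 tested mitosis members were higher in Sayeok-tang than in dried ginger (15.0% of all genes), with a list median of 0.48. All 30 passed the test of the dose changes (8.0% of all genes in this direction). None was called at 20 µg/mL, where the median was 0.02. Against vehicle, 15 of 30 members were lower in Sayeok-tang (9.12% of all genes), with a median of −0.10. All 30 were lower in dried ginger (21.4% of all genes), with a median of −0.55. The median change from 20 to 500 µg/mL was −0.07 in Sayeok-tang and −0.5 in dried ginger. In bulk RNA, fewer cells in mitosis and less RNA per cell cannot be told apart.

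Of the kinases and cyclins, PLK1, which drives mitotic entry and spindle assembly, had 182, 182 and 185 CPM in Sayeok-tang, against 122, 122 and 115 CPM in dried ginger and 200, 203 and 206 CPM in vehicle. CCNB1, the cyclin partner of CDK1, had 208, 207 and 206 CPM in Sayeok-tang, against 136, 133 and 140 CPM in dried ginger and 238, 242 and 248 CPM in vehicle. KIF20A, a kinesin of cytokinesis, had 73.1, 73.5 and 74.2 CPM in Sayeok-tang, against 43.3, 40.9 and 42.9 CPM in dried ginger and 85.0, 82.4 and 82.5 CPM in vehicle. For each of these the Sayeok-tang libraries lay between the other groups and nearer to vehicle. KIF20A had the largest difference of the list, 0.79 ± 0.04 (adjusted p = 3.16e-18), and BUB3, a checkpoint protein, the smallest, 0.17.

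The cell cycle homology element, TTTGAA, lies near the start of many such genes. It was found on either strand in the 250 bases upstream of 12 of 23 tested members with a sequence, against 13.6% of all promoters. All 23 were called, with or without the element. The 2 members with the largest differences that held it were PLK1 (chr16:23678830-23678888, plus strand) and KIF11 (chr10:92593072-92593129, plus strand, element on the opposite strand), shown up to the base before the start.
PLK1: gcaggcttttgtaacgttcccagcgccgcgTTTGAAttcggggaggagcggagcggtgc
KIF11: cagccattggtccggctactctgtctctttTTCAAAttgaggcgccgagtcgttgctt

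DNA replication genes moved less. Of 34 tested, 28 were higher in Sayeok-tang and none lower (15.0% and 15.5% of all genes), with a median of 0.24. Of the 28, 25 passed both tests (7.8% of all genes in this direction). RRM2, the regulated subunit of ribonucleotide reductase, had 307, 310 and 319 CPM in Sayeok-tang, against 227, 224 and 235 CPM in dried ginger and 340, 349 and 337 CPM in vehicle. CDKN2C, the CDK4/6 inhibitor p18, had 12.1, 13.5 and 12.5 CPM in Sayeok-tang, against 7.49, 6.6 and 6.93 CPM in dried ginger and 16.5, 17.3 and 19 CPM in vehicle. POLA1 (0.10) and RFC2 (0.02) were not called.

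Cytosolic heat shock proteins are chaperones under control of HSF1. Of 19 tested, 18 were higher in Sayeok-tang and none lower (15.0% and 15.5% of all genes), with a median of 0.28. Of the 18, 16 passed both tests (7.8% of all genes in this direction). HSP90AA1, the inducible HSP90, had 2780, 2690 and 2660 CPM in Sayeok-tang, against 1940, 1770 and 1920 CPM in dried ginger and 2940, 3070 and 2940 CPM in vehicle. HSPA1A, inducible HSP70, had 286, 256 and 255 CPM in Sayeok-tang, against 211, 194 and 189 CPM in dried ginger and 332, 337 and 362 CPM in vehicle. Dried ginger was lowest and vehicle highest for both. HSP90AA1 was already under vehicle in Sayeok-tang at 20 µg/mL (−0.13 ± 0.03, adjusted p = 0.0134). Its change from 20 to 500 µg/mL in Sayeok-tang was not called (−0.0 ± 0.03, adjusted p = 0.972). Between the extracts, HSPA1A differed the other way at 100 µg/mL, by −0.29 (adjusted p = 0.0291). The difference was −0.17 at 20 µg/mL (adjusted p = 0.667) and 0.42 ± 0.06 at 500 µg/mL (adjusted p = 1.35e-05). HSPA1A and HSPA1B are near-identical copies, so reads may be split between them with error. CRYAB (−0.38), a small heat shock protein, was not called.

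A pair of inverted units of the heat shock element, GAANNTTC, stood upstream of 6 of 17 tested members with a sequence and in 5.85% of all promoters. That of HSPA1A (chr6:31815407-31815474, plus strand) is shown as the member with the largest difference that held it.
HSPA1A: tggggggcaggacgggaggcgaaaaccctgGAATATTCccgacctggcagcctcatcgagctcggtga

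The genes with the largest positive differences included several that fell with dose in both extracts, further in dried ginger. H19, an imprinted long noncoding RNA, had 42.6, 41.2 and 38.2 CPM in Sayeok-tang, against 13.4, 15.7 and 14.1 CPM in dried ginger and 83.2, 79.1 and 93.8 CPM in vehicle. The difference was 1.51 ± 0.06 (adjusted p = 3.95e-19), against −0.00 at 20 µg/mL. KRT4, a keratin of stratified mucosa, had 15.9, 18.1 and 13.1 CPM in Sayeok-tang, against 5.2, 5.41 and 6.02 CPM in dried ginger and 27.7, 28.7 and 30.2 CPM in vehicle. PEG10, another imprinted gene, had 334, 328 and 321 CPM in Sayeok-tang and 197, 199 and 205 CPM in dried ginger. Of 13 tested imprinted genes 4 were higher in Sayeok-tang and 3 lower, against 15.0% and 15.5% of all genes. MEG3 (−0.77) and GRB10 (−0.47) were among the lower ones.

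Fibrinogen, the clotting protein and acute phase reactant made mainly by liver, is also transcribed in A549 cells. FGB had 102, 106 and 100 CPM in Sayeok-tang, against 46.4, 42.6 and 47.8 CPM in dried ginger and 158, 162 and 168 CPM in vehicle. FGA had 101, 103 and 98.9 CPM in Sayeok-tang, against 45.1, 45.3 and 50 CPM in dried ginger and 150, 146 and 161 CPM in vehicle. The differences were 1.17 ± 0.04 (adjusted p = 8.81e-24) for FGB and 1.10 ± 0.04 (adjusted p = 2.06e-23) for FGA, and FGG differed by 0.66. Of 14 tested acute phase and complement genes, 6 were higher in Sayeok-tang and none lower, against 15.0% and 15.5% of all genes. C1S (−0.01) and APOH (−0.01) were not called. That list's median, 0.46, was 0.28 without Sayeok-tang replicate 1.

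**Figure D4:**
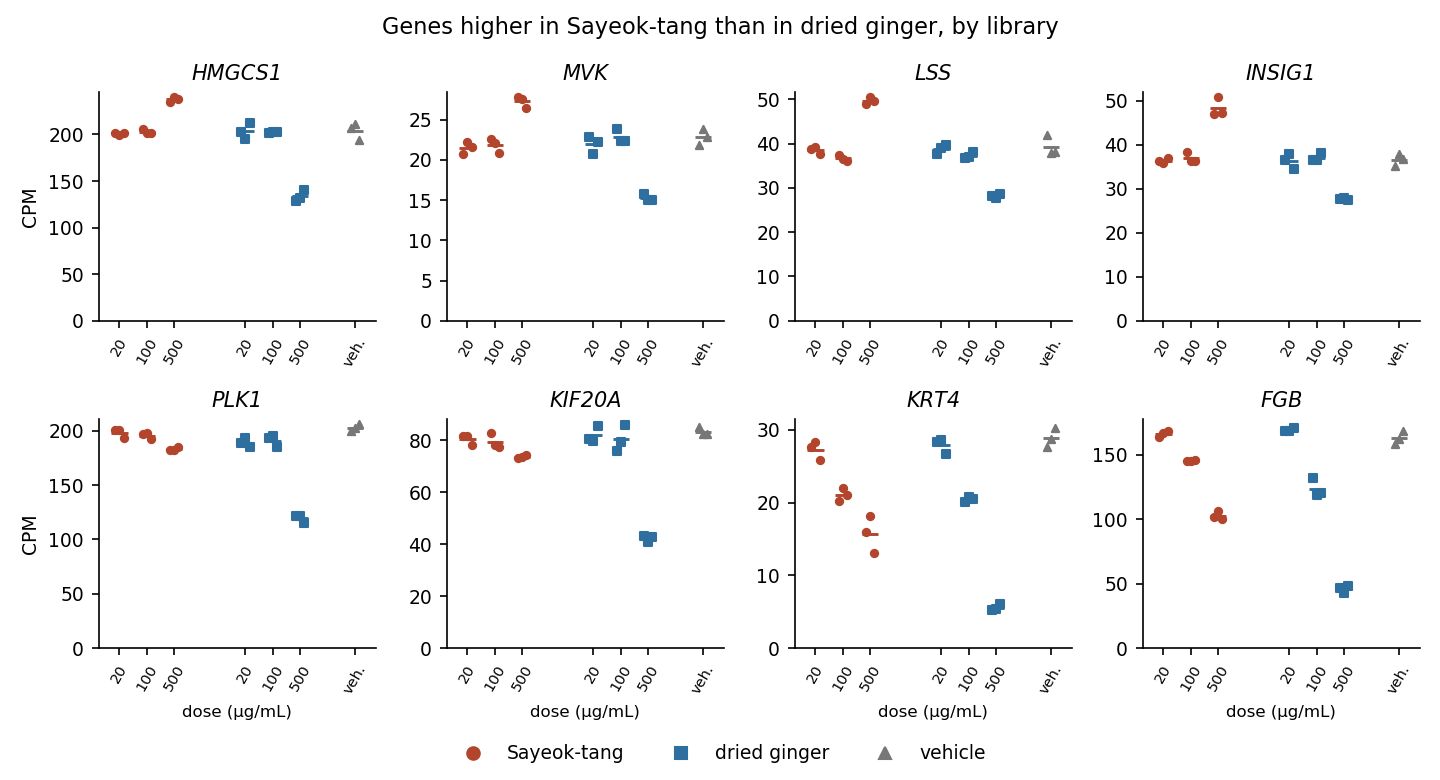
CPM in every library of 8 genes higher in Sayeok-tang than in dried ginger at 500 µg/mL, by dose of Sayeok-tang (circles), by dose of dried ginger (squares) and in vehicle (triangles), with bars at the means. HMGCS1, MVK, LSS and INSIG1 stand over vehicle in Sayeok-tang 500 and under it in dried ginger 500, while KRT4 and FGB decline with dose in both.

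Orphan nuclear receptors of the NR4A family, induced by many stimuli, shared the decline. NR4A1 had 19.1, 19.8 and 18.6 CPM in Sayeok-tang, against 10.8, 10.7 and 10.0 CPM in dried ginger and 37.8, 37.2 and 39.9 CPM in vehicle. Its difference was 0.88 ± 0.06 at 500 µg/mL (adjusted p = 5.96e-15) and 0.32 at 100 µg/mL (adjusted p = 0.000684). NR4A3 differed by 1.08 ± 0.14 (adjusted p = 9.68e-08). Within the immediate early list these 2 were the higher members, while 12 of 23 were lower in Sayeok-tang (15.5% of all genes). DUSP5, a nuclear phosphatase that acts on ERK, had 49.9, 51.9 and 52.3 CPM in Sayeok-tang, against 75.4, 79.7 and 73.2 CPM in dried ginger and 59.2, 60.4 and 63.4 CPM in vehicle. It was therefore under vehicle in Sayeok-tang and over it in dried ginger.

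Ligand-activated AhR, the aryl hydrocarbon receptor that senses planar aromatic compounds, induces the cytochromes CYP1A1 and CYP1B1 and its own repressors. Of 7 tested members, 5 were lower in Sayeok-tang than in dried ginger and none was higher (15.5% and 15.0% of all genes). Against vehicle, 4 rose and 1 fell in Sayeok-tang (8.58% and 9.12% of all genes). In dried ginger 5 rose and 1 fell (22.7% and 21.4% of all genes). CYP1B1 had 137, 146 and 140 CPM in Sayeok-tang, against 194, 195 and 203 CPM in dried ginger and 58.2, 54.0 and 56.7 CPM in vehicle. TIPARP, an AhR-induced repressor, had 73.8, 79.4 and 81.4 CPM in Sayeok-tang, against 99.9, 103 and 111 CPM in dried ginger and 35.8, 35.2 and 34.3 CPM in vehicle. Vehicle was lowest and dried ginger highest in both genes, and at 100 µg/mL CYP1B1 already differed by −0.30 (adjusted p = 2.07e-05) and TIPARP by −0.24 (adjusted p = 0.00827).

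CYP1A1 was scarce, at 3.14, 3.1 and 2.88 CPM in Sayeok-tang, against 5.63, 5.45 and 5.33 CPM in dried ginger and 0.829, 0.781 and 1.04 CPM in vehicle. It differed by −0.84 ± 0.13 at 500 µg/mL (adjusted p = 3.64e-06). At 20 µg/mL it had 0.933, 1.0 and 0.734 CPM in Sayeok-tang, against 1.45, 1.56 and 1.35 CPM in dried ginger, a difference of −0.71 that was not called (adjusted p = 0.517). The change between 20 and 500 µg/mL, 1.77 in Sayeok-tang and 1.90 in dried ginger, did not pass the test of a difference (−0.13 ± 0.26, adjusted p = 0.818). Of the 5 members lower at 500 µg/mL, CYP1B1 and TIPARP passed both tests. ALDH3A1, an aldehyde dehydrogenase, was lower at 500 µg/mL (−0.16), while its change against vehicle in Sayeok-tang, −0.02, was not called (adjusted p = 0.791). NQO1 (0.01) and UGT1A6 (−0.22) did not differ by the test between extracts, and NQO1 was under vehicle in both, by −0.11 in Sayeok-tang and −0.13 in dried ginger.

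NF-kB, the main transcription factor of inflammation, targets chemokines and its own inhibitors. Of 18 tested members, 16 were higher than vehicle in Sayeok-tang (8.58% of all genes) and 17 in dried ginger (22.7% of all genes), with medians of 0.76 and 0.80. Between the extracts 10 were lower in Sayeok-tang (15.5% of all genes) and 3 higher, near the 15.0% of all genes, with a median of −0.25. CXCL5, a neutrophil chemokine, had 165, 183 and 174 CPM in Sayeok-tang, against 224, 226 and 224 CPM in dried ginger and 83.9, 86.4 and 86.0 CPM in vehicle. BIRC3, an apoptosis inhibitor, had 55.4, 51.2 and 55.5 CPM in Sayeok-tang and 74.3, 70.0 and 76.6 CPM in dried ginger. CXCL8 had 5.56, 6.82 and 6.56 CPM in Sayeok-tang, against 7.37, 8.69 and 7.21 CPM in dried ginger and 1.11, 0.813 and 1.32 CPM in vehicle. Both extracts stood well over vehicle for CXCL8, by 2.56 ± 0.17 in Sayeok-tang and 2.85 ± 0.17 in dried ginger, while the difference between them, −0.29 ± 0.13, was not called (adjusted p = 0.0844). The higher members were CCL2 (0.28), IL32 (0.42) and NFKBIZ (0.45), and NFKB1 (−0.00) and TNFAIP3 (0.01) were not called.

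Genes tied to damage and death are given beside the 15.5% of all genes that were lower and the 15.0% that were higher in Sayeok-tang. Of 26 tested p53 targets, 10 were lower and 2 higher, and SESN2 and GDF15 among the lower ones are also ATF4 list members. MDM2 (−0.06) and BAX (−0.02), classic p53 targets, were not called. Of 19 tested BCL2 family and caspase genes, 7 were lower and none higher. PMAIP1 (NOXA), a pro-death BH3 protein, had 18.9, 19.2 and 17.8 CPM in Sayeok-tang, against 28.3, 28 and 27.9 CPM in dried ginger and 15.1, 17.2 and 18.1 CPM in vehicle. Of 21 autophagy and lysosome genes, 11 were lower and 1 higher, and SQSTM1, the autophagy receptor p62, had 911, 916 and 921 CPM in Sayeok-tang, against 1470, 1410 and 1350 CPM in dried ginger and 796, 806 and 868 CPM in vehicle. Dried ginger stood apart in both genes. Against vehicle, Sayeok-tang was higher for SQSTM1 (0.15 ± 0.03, adjusted p = 0.000731), and its change for PMAIP1 was not called (0.15 ± 0.07, adjusted p = 0.101).

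Antioxidant genes under NRF2, which reactive compounds of ginger are known to engage in other cells, showed no common direction between the extracts. A549 cells carry an inactivating mutation of KEAP1, the repressor of NRF2, so these genes are highly active without treatment. Of 30 tested, 8 were higher and 8 lower in Sayeok-tang, against 15.0% and 15.5% of all genes, with a median of −0.00. ABCC3, an exporter of conjugates, had 405, 406 and 379 CPM in Sayeok-tang, against 635, 660 and 605 CPM in dried ginger and 375, 377 and 378 CPM in vehicle. FTL (0.01) and FTH1 (−0.15), the ferritin chains, were not called.

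Other genes with lower levels in Sayeok-tang had varied roles. SMOC1, a matricellular protein that modulates BMP signals, had 8.36, 9.0 and 8.53 CPM in Sayeok-tang, against 20.3, 19.7 and 21.5 CPM in dried ginger and 11.2, 11.8 and 13.0 CPM in vehicle. Sayeok-tang lay under vehicle (−0.47 ± 0.08) and dried ginger over it (0.78 ± 0.07). CDCP1, a transmembrane Src substrate, had 8.36, 8.0 and 7.61 CPM in Sayeok-tang, against 18.9, 18.7 and 17.9 CPM in dried ginger and 4.25, 4.13 and 3.68 CPM in vehicle. GREM1, a secreted BMP antagonist, had 14.6, 15.0 and 14.6 CPM in Sayeok-tang, against 21.6, 21.7 and 20.7 CPM in dried ginger and 5.22, 4.85 and 5.12 CPM in vehicle. CDCP1 and GREM1 stood over vehicle in both extracts. CLGN, a testis-type chaperone of the endoplasmic reticulum, differed by −1.12 ± 0.06, PABPC1L, a relative of the poly(A)-binding protein, by −1.13 ± 0.07, and ADM2, a peptide of the calcitonin family, by −1.5 ± 0.13. TSC22D3 (GILZ), best known as a glucocorticoid target, had 10.9, 11.5 and 12.4 CPM in Sayeok-tang and 25.3, 23.4 and 22.7 CPM in dried ginger, while another, SGK1, was 0.48 ± 0.05 higher.

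In the remaining groups, counts are to be read against the 15.0% of all genes that were higher and the 15.5% that were lower in Sayeok-tang. Ribosomal protein genes were lower in 17 of 35 tested, with a median of −0.09 and RPLP0 at −0.24 ± 0.03. None of the 13 transcripts of the mitochondrial genome was called, at 500 or at 20 µg/mL. Nuclear genes of the respiratory chain were higher in 8 of 33. Hypoxia and glycolysis genes were higher in 12 and lower in 6 of 30, with ADM at 0.65 ± 0.04 and HK2 at −0.78. Junction and alveolar epithelial genes were lower in 8 of 15 and higher in none, with OCLN, of the tight junction, and ABCA3, the surfactant lipid transporter, both at −0.43 ± 0.05. Matrix and TGF-beta genes were higher in 12 of 30, and their 4 lower members were near the share over all genes. Interferon response genes, with 2 higher and 2 lower of 18, were near it in both directions.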

How the data were processed

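Per the labels, A549 RNA was sequenced as strand-directional mRNA libraries with 100 bp paired reads. Per the submitters' processing notes, FastQC 0.11.9, Trim Galore 0.6.5, STAR 2.7.3a and RSEM 1.3.3 were used, while the release of the annotation is not given in the sources used here. As deposited by the authors, the table holds RSEM expected counts for 60675 gene IDs, neither normalized nor on a log scale, and 24.4% of non-zero values were not whole. It has 269 value columns; 60 matched the series' samples and 209 were not used. Symbols were matched for 56558 IDs and positions in GENCODE 29 (GRCh38) for 57055.

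Expected counts were rounded. Genes were filtered with filterByExpr (minimum count 10), scaled by TMM and tested with edgeR 4.0.16 (robust glmQLFit, glmQLFTest, R 4.3.3) in 21 libraries with 1 mean per group, 7 groups and 14 residual degrees of freedom. Benjamini-Hochberg adjustment ran over all 16593 genes tested, and all errors of log2 differences are standard errors of the fit. CPM of single genes scale counts to the TMM-adjusted total, and sums of markers to the plain library total. Replicate libraries differed by more than sampling noise (chi-square per degree of freedom from 1.87). Each was counted as 1 sample, although this spread cannot show that the libraries came from separate cultures. Same-numbered libraries of the extracts at 500 µg/mL did not deviate together (correlations of 0.06, 0.156 and 0.041), so the numbers were not taken as pairs.

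The comparison and the gene lists were chosen with earlier results of these data known. Named genes were the 10 higher and 10 lower with the largest difference among those called both at 500 µg/mL and in the dose changes (mean of at least 5 CPM, no overlap), the 2 called members of lowest p per list (4 in 5 lists), up to 2 uncalled members of highest CPM, and 12 followed genes. Some genes that the rule named are not reported here. Other genes named were chosen after their values were seen. Alternatives were size factors by relative log expression, DESeq2 1.42.0, no filter, fits of only the groups compared or of all 60 libraries, a replicate block and leaving out each library. Promoter sequences are from RefSeq (GRCh38.p14).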

Additional observations from a re-analysis of the deposited data

Results flagged for a closer look

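The change between 20 and 500 µg/mL differed between Sayeok-tang and dried ginger for 2578 of 16593 genes by the test of that difference itself. In 46 genes the change was called in both extracts and in opposite directions, 30 of them upward in Sayeok-tang and downward in dried ginger and 16 the reverse. Of the 30, 18 belonged to the 25 tested cholesterol synthesis genes and 3 to the 15 tested fatty acid synthesis genes.

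Among the genes named by rule, the difference of dose changes (Sayeok-tang minus dried ginger, log2) was 0.87 for MVK, 0.84 for HMGCS1, 0.82 for LSS, 0.72 for DHCR7, 0.77 for FADS2 and 0.72 for SCD, all upward in Sayeok-tang. It was −1.27 for SMOC1 and −0.58 for DUSP5, both downward in Sayeok-tang and upward in dried ginger. The dose change of HMGCS1 was 0.24 in Sayeok-tang and −0.60 in dried ginger, and that of SMOC1 was −0.43 in Sayeok-tang and 0.84 in dried ginger.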

How the results depend on the processing

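The counts at 500 µg/mL stayed within 1.5 times the main value under every alternative run: 5066 genes in the fit reported, 4286 with DESeq2, 5111 with relative log expression factors, 4785 without a filter, 5238 with only the groups compared, 4929 with all 60 libraries and 4184 to 4519 leaving out each library. The dose-change count ran from 2150 to 2632 and that passing both tests from 2060 to 2496 leaving out each library. Among the named genes, for which signs were compared, no called value changed sign in the alternatives run. The share of calls at 500 µg/mL that were higher in Sayeok-tang was 49.2% in the fit reported, 53.4% with relative log expression factors and 56.1% with DESeq2. At 20 µg/mL, where 1 gene was called, the count was 16 without a filter, 16 with only the groups compared, 4 with all 60 libraries, 13 with DESeq2 and 0 to 1 leaving out each library; it was 0 without Sayeok-tang replicate 2 and without dried ginger replicate 1 or 2. At 100 µg/mL, where 52 genes were called, it was 88 without a filter and 19 to 51 leaving out each library (32 without Sayeok-tang replicate 1, 20 without Sayeok-tang replicate 2, 19 without dried ginger replicate 1 and 31 without dried ginger replicate 3). The cause of these shifts was not tested. With the replicate number as a block, the counts were 3 at 20 µg/mL and 5085 at 500 µg/mL; the numbers do not pair the extracts. Of the alternative values of named genes and lists, 4409 counted as unchanged. For genes this meant the same side of the threshold, and values not called could change sign. For lists it meant a median that moved by under 0.1. Another 27 values passed the threshold newly, 10 no longer passed and 4 list medians moved by 0.1 or more. CXCL8 passed at 500 µg/mL with only the groups compared (adjusted p = 0.0386). The median of the acute phase list ran from 0.283 to 0.46. Genes of few counts, such as CYP1A1 at under 6 CPM, have the widest errors.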

Other observations

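Some differences at 500 µg/mL lay in IDs without a symbol. FP236383.2, a lincRNA of chromosome 21 in GENCODE 29, had 465, 555 and 1010 CPM in Sayeok-tang 500, against 277, 267 and 221 CPM in dried ginger 500 and 758, 617 and 807 CPM in vehicle, a difference of 1.41 ± 0.36 (log2, adjusted p = 0.00772 by edgeR). At 20 µg/mL it had 517, 516 and 270 CPM in Sayeok-tang and 285, 245 and 274 CPM in dried ginger, a difference of 0.70 that was not called (adjusted p = 0.836), and the difference of dose changes was not called either (0.71, adjusted p = 0.415). FP236383.3 and FP671120.3, also on chromosome 21, had identical values in most libraries, so reads cannot be assigned to one of the 3. Dried ginger libraries of the doses of 20, 100 and 500 µg/mL had 221 to 285 CPM of FP236383.2, under all 3 vehicle libraries.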
